A study of Mus musculus with 4 samples.

Results

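The genes described here are 9 members of the Sox family (Sox2, Sox4, Sox5, Sox6, Sox8, Sox9, Sox11, Sox12 and Sox13) and Sox2ot, a long noncoding RNA whose gene spans Sox2. They were taken by symbol, and all 10 were among the 33565 genes of the count matrices. RNA was measured in single cells of 3 mouse cell lines by CapSeq, a split-pool method in which each cell collects 3 barcode segments and the opening segment, BC1, marks the line. N2a is a neuroblastoma line and NIH/3T3 is a fibroblast line, both grown in DMEM with serum. The mESCs were of the E14TG2a line, grown on gelatin in DMEM with serum, LIF, CHIR99021 and PD0325901. All lines went through 1 library, so that each line is 1 sample of 1 culture, no test between lines was possible, and no p-value is given.

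SOX proteins bind DNA through an HMG box and are grouped by the similarity of that box. Sox2, of the SoxB1 group, works with POU5F1 to hold the pluripotent state of embryonic stem cells and is also active in neural progenitors. The SoxC genes (Sox4, Sox11, Sox12) act in newly formed neurons and in many progenitors, the SoxE genes (Sox8, Sox9) in neural crest, glia and cartilage, and the SoxD proteins (Sox5, Sox6, Sox13) lack a transactivation domain of their own and act beside other SOX proteins, as Sox5 and Sox6 do with SOX9 in cartilage.

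Barcodes of 1000 UMIs or more, of which no more than 20% were mitochondrial, were taken as cells, which gave 2323 N2a cells, 2037 NIH/3T3 cells and 2137 mESCs, 6497 in all. They held 17955221, 11697865 and 12322098 UMIs, with medians of 6185, 4863 and 4803 UMIs per cell. No barcode held UMIs in more than 1 line (0 barcodes). This follows from the split by BC1, which is part of the barcode, and is no check on mixing or doublets. Each line had 32 BC1 sequences, which share the culture and the library and are given as a spread, not as replicates. How many of all genes have spreads that do not overlap between lines was not counted. Of 5 markers per line, all 5 led in mESCs (among them Nanog and Zfp42), 4 in NIH/3T3 (Col1a1, Col1a2, Cav1 and Lox) and 3 in N2a (Hand2, Phox2a and Chga). The N2a marker Gata3 was higher in mESCs (8.44 CPM) than in N2a (3.84 CPM).

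Levels are given as CPM, the UMIs of a gene per 1000000 UMIs, both summed over the cells of a line, with 95% exact Poisson intervals, which cover counting error only. A gene was said to lead in a line when its CPM there was at least 4 times that of the higher of the other lines, a line at 0 being taken as 3 counts. Among 11366 genes with at least 10 CPM in a line, 6.16% led in N2a, 7.28% in mESCs and 5.67% in NIH/3T3. Of the 10 genes, 9 passed this filter and Sox2 did not. Sox8 and Sox11 led in N2a, Sox9 in NIH/3T3 and Sox13 in mESCs. Sox2ot, Sox4, Sox5 and Sox6 were also highest in N2a, and Sox12 in mESCs, without reaching 4-fold.

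**Figure D1:**
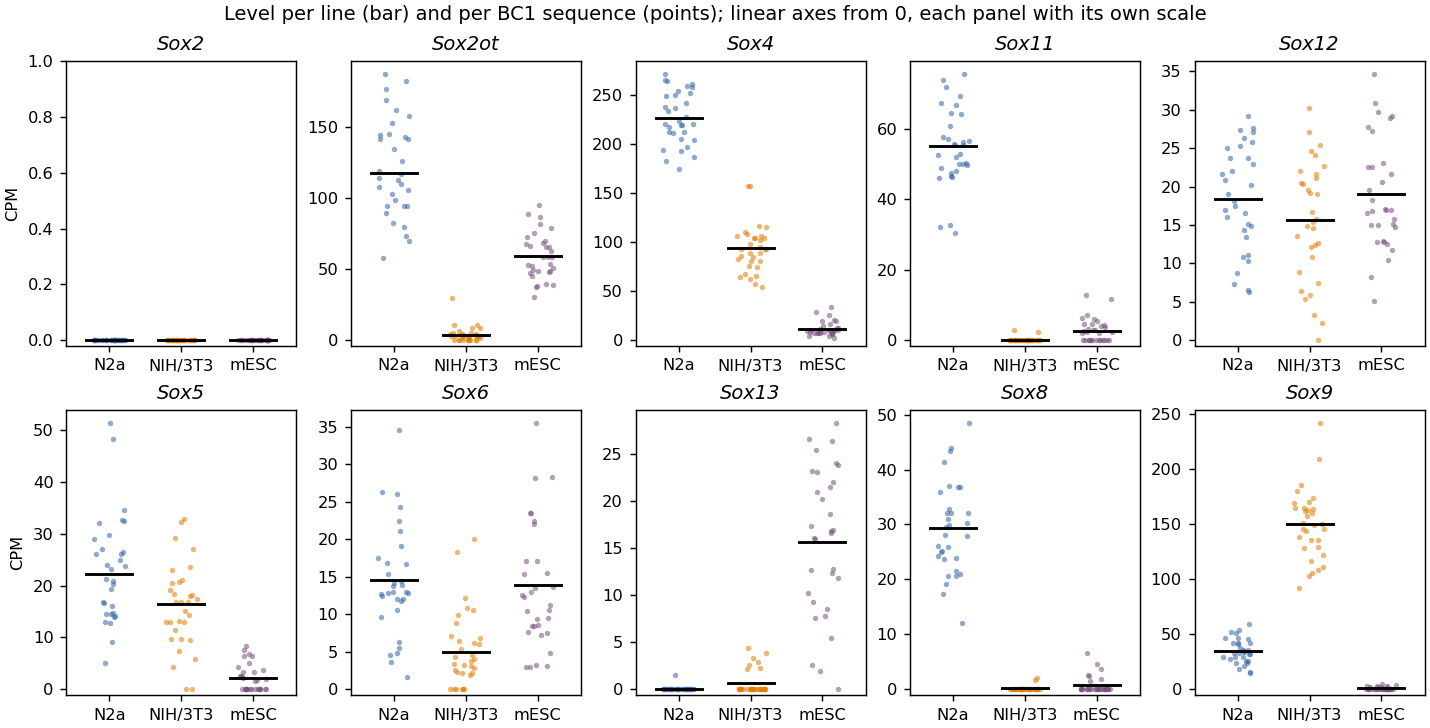
Level of each gene in N2a, NIH/3T3 and mESCs, in CPM on a linear axis of its own for each panel. The black bar is the level over all cells of the line and each point is 1 of its 32 BC1 sequences. Sox8 and Sox11 (N2a), Sox9 (NIH/3T3) and Sox13 (mESCs) stand highest in a single line, Sox12 is at a like level in all 3, and Sox2 is at 0 everywhere.

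Sox2 was listed at 0 UMIs in each of the 3 lines, over all 6497 cells. The upper bound of the interval was 0.205 CPM in N2a, 0.299 CPM in mESCs and 0.315 CPM in NIH/3T3, and 0 of 2137 mESCs allows a share of cells with a UMI of up to 0.140% when a count of 0 is taken as 3 (exact binomial upper bound 0.172%). Without any cell filter Sox2 was also at 0, in the sample-resolved matrices and in the pooled output alike. Sox2 is 1 exon at chr3:34704554-34706610 on the plus strand of GRCm39. It lies within Sox2ot (chr3:34158419-34789489, same strand), 546135 bases from the start of that gene, and shares 0 exon bases with it. In the annotation, the nearest Sox2ot exon on the left is 8911 bases away and the next exon on the right 446 bases away. A gene without RNA and a gene whose reads were given to Sox2ot or to no gene cannot be told apart in these matrices, so the 0 is given as listed and not as a level of Sox2 RNA.

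**Figure D2:**
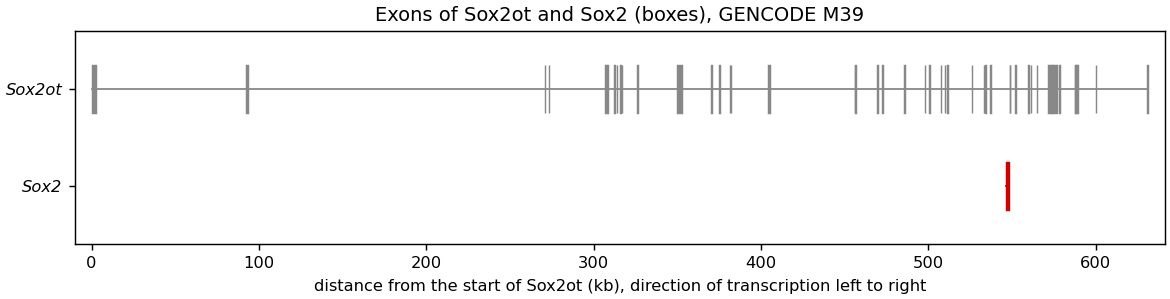
Exons of Sox2ot and Sox2 in GENCODE M39, by distance from the start of Sox2ot in kb, both transcribed from left to right. Boxes are exons and the line is the span of the gene. The single exon of Sox2 falls between exons of Sox2ot.

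Other protein-coding genes inside a longer gene of the same strand were often at 0 as well. Of 324 such genes, 262 (80.9%) had 0 UMIs in all 3 lines, beside 2837 of 19992 protein-coding genes that overlap no gene of their strand (14.2%). Among the 176 nested genes that, like Sox2, share no exon base with the host, 131 were at 0 (74.4%), and among the 148 that share exon bases 131 were at 0 (88.5%). Only 15 of the 176 reached 100 UMIs over the 3 lines (8.52%), against 57.2% of the genes without overlap. Sox1, a SoxB1 relative of Sox2 in neural progenitors, is placed in the same way inside Sox1ot and was also at 0 in every line. Sox14, which overlaps no gene of its strand, was at 0 in every line too. The part of the read assignment in these shares was not tested. Host genes were read from GENCODE M39, whereas the authors counted on M30, so that some hosts may not have been in their annotation.

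**Figure D3:**
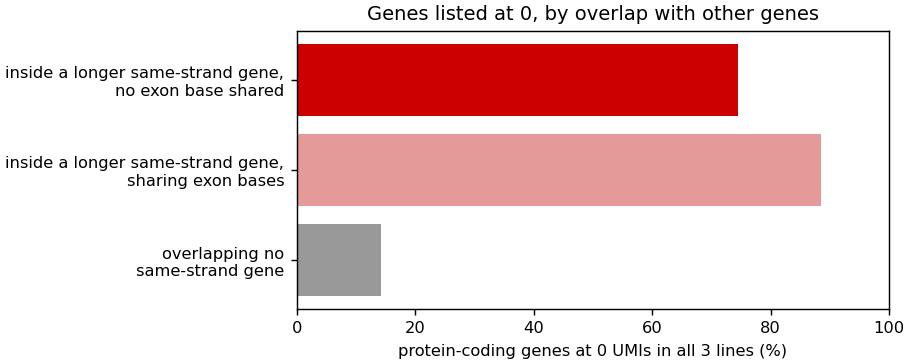
Share of protein-coding genes with 0 UMIs in all 3 lines, by overlap with other genes of the same strand. The groups hold 176, 148 and 19992 genes from top to bottom. The share was 74.4% and 88.5% for genes inside a longer gene, and 14.2% for genes without overlap.

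The stretch of 250 bases before the annotated start is shown for Sox2, which was at 0, for Sox9 and Sox11, which led in a single line, and for Sox12, which was nearly even. They were read from the GRCm39 genome in the direction of transcription, at chr3:34704304-34704553 (plus strand) for Sox2, chr11:112672759-112673008 (plus) for Sox9, chr12:27392574-27392823 (minus) for Sox11 and chr2:152239984-152240233 (minus) for Sox12. Capitals mark the octamer ATGCAAAT, the sequence bound by POU factors.
Sox2: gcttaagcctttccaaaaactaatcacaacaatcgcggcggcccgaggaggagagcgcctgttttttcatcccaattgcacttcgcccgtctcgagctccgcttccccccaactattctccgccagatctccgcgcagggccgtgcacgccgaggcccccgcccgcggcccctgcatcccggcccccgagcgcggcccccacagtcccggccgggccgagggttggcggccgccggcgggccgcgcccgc
Sox9: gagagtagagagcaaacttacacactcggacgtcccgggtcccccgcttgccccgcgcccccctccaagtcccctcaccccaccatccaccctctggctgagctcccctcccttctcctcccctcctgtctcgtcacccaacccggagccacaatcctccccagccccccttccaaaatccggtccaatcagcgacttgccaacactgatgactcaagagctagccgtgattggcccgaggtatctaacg
Sox11: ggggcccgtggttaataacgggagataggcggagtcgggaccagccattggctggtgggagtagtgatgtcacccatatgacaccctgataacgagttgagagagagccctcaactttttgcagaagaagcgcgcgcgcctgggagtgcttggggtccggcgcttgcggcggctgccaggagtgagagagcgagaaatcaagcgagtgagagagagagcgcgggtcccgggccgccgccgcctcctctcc
Sox12: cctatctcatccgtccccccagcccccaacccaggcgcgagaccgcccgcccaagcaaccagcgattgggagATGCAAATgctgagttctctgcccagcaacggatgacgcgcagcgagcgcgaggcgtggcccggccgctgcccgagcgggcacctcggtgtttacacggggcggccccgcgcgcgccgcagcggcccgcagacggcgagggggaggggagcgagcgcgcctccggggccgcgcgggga
The exact letters CATTGT, taken as the SOX core and searched on both strands, were in none of the 9 Sox promoters (0). Of 21290 protein-coding promoters of the same length, 9.38% held them. Other spellings of a SOX site were not searched, so the 0 does not mean that these promoters lack one. The octamer, also searched on both strands, was in 1 of the 9, that of Sox12 (178 bases before the start), and in 1.50% of all promoters. GC content had a median of 62.4% over the 9 promoters, from 41.2% to 74.8%, and of 53.2% over all promoters.

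Sox2ot, which runs through the locus, was counted in every line. It had 2117 UMIs in N2a, at 117.9 CPM (112.9 to 123.0), 735 UMIs in mESCs, at 59.6 CPM (55.4 to 64.1), and 43 UMIs in NIH/3T3, at 3.68 CPM (2.66 to 4.95). N2a was 1.98 times as high as mESCs (1.82 to 2.15) and 32.1 times as high as NIH/3T3 (23.7 to 44.5). The BC1 sequences ran from 57.8 to 187.2 CPM in N2a and from 30.2 to 95.4 CPM in mESCs, so that those of the 2 lines overlapped. In NIH/3T3 they ran from 0 to 29.6 CPM around a median of 3.04, and 10 of 32 were at 0.

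Sox2ot was spread unevenly over the N2a cells. When every cell was thinned to 1000 UMIs, the variance of its UMIs over cells was 1.37 times the mean in N2a, and this ratio was larger than in 98.9% of the 4619 genes with a mean of at least 0.05, whose median ratio was 1.03. The ratio was 1.17 in mESCs, larger than in 94.6% of 4446 genes. For Sox4 and Sox11 in N2a the ratio was 1.04 and 1.02. For members under that mean, with few UMIs after thinning, the ratio in N2a was 1.27 for Sox5 and Sox6. It was 1.03 there for Sox9 and Sox12 and 0.966 for Sox8. In mESCs it was 1.25 for Sox4 and 1.19 for Sox6, above that of Sox2ot, and 0.982 for Sox12 and Sox13. Unthinned, 114 N2a cells (4.91%) held at least 5 Sox2ot UMIs each and together 42.1% of the Sox2ot UMIs of the line, and the highest cell held 25. In mESCs 16 cells reached 5 UMIs and the highest held 12, and in NIH/3T3 no cell (0) held more than 3. Unthinned counts also rise with the level in the line and with cell depth, which ran from 1012 to 47407 UMIs in N2a. The depth of the cells with at least 5 Sox2ot UMIs was not compared. For Sox4, the highest N2a cell held 22 UMIs.

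The SoxC genes together had 300.1 CPM in N2a (292.2 to 308.3), 33.3 CPM in mESCs (30.1 to 36.7) and 110.0 CPM in NIH/3T3 (104.1 to 116.2). Sox4, a regulator of progenitor survival and neuronal differentiation, was at 226.6 CPM in N2a (219.7 to 233.6), 11.4 CPM in mESCs (9.63 to 13.5) and 94.2 CPM in NIH/3T3 (88.7 to 99.9). Its level in N2a was 2.41 times that in NIH/3T3 (2.25 to 2.57) and 19.8 times that in mESCs (16.7 to 23.6). The BC1 sequences for Sox4 ran from 174.8 to 271.6 CPM in N2a, 54.3 to 157.7 CPM in NIH/3T3 and 2.16 to 34.3 CPM in mESCs.

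Sox11, which acts in immature neurons, was at 55.2 CPM in N2a (51.8 to 58.7). It was at 2.76 CPM in mESCs (1.91 to 3.86), from 34 UMIs, and at 0.171 CPM in NIH/3T3, from 2 UMIs. The ratio of N2a to mESCs had an interval of 14.2 to 29.0, and N2a stood 323 times above NIH/3T3 (89.1 to 2669). The BC1 sequences for Sox11 ran from 30.4 to 75.4 CPM in N2a, and the highest of the other lines was at 12.9 CPM.

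Sox12, the remaining SoxC gene, was at 18.4 CPM in N2a (16.4 to 20.5), 19.1 CPM in mESCs (16.7 to 21.7) and 15.6 CPM in NIH/3T3 (13.5 to 18.1). The ratio of mESCs to N2a was 1.04 (0.874 to 1.23), of N2a to NIH/3T3 1.17 (0.978 to 1.42) and of mESCs to NIH/3T3 1.22 (1.00 to 1.49). Neighbours in this order did not differ beyond counting error.

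The SoxE genes were split between the lines. Sox8, known from neural crest and glia, was at 29.4 CPM in N2a (26.9 to 31.97), 0.730 CPM in mESCs (0.334 to 1.39, 9 UMIs) and 0.171 CPM in NIH/3T3 (2 UMIs). N2a was 40.2 times as high as mESCs (21.0 to 88.4) and 172 times as high as NIH/3T3 (47.3 to 1421). Sox9, the regulator of cartilage formation that is also active in neural crest and stem cells of several tissues, was at 150.3 CPM in NIH/3T3 (143.3 to 157.5), 35.2 CPM in N2a (32.5 to 38.1) and 0.812 CPM in mESCs (0.389 to 1.49, 10 UMIs). NIH/3T3 was 4.27 times as high as N2a (3.90 to 4.68), close to the limit of 4 used for leading, and 185 times as high as mESCs (100.5 to 386.8). With each cell thinned to 1000 UMIs, Sox9 no longer reached 4-fold. Its BC1 sequences ran from 92.0 to 241.6 CPM in NIH/3T3 and from 15.1 to 59.5 CPM in N2a. Sox10, the SoxE gene of glia, had 3 UMIs in N2a and 0 in the other lines, and the glial marker S100b was at 1.28 CPM in N2a.

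The SoxD genes summed to 36.9 CPM in N2a (34.2 to 39.8), 31.7 CPM in mESCs (28.7 to 35.0) and 22.1 CPM in NIH/3T3 (19.4 to 24.9), but from different genes. Sox5 was at 22.3 CPM in N2a (20.1 to 24.6), 2.11 CPM in mESCs (1.38 to 3.09) and 16.4 CPM in NIH/3T3 (14.2 to 18.9). N2a was 1.36 times as high as NIH/3T3 for Sox5 (1.14 to 1.62), and the BC1 sequences of these lines overlapped. Sox6 was at 14.6 CPM in N2a (12.9 to 16.5) and 14.0 CPM in mESCs (12.0 to 16.2), a ratio of 1.05 (0.859 to 1.27), and at 4.96 CPM in NIH/3T3 (3.76 to 6.41). The order of N2a and mESCs for Sox6 turned when each cell was thinned to 1000 UMIs. Sox13 was at 15.7 CPM in mESCs, 0.684 CPM in NIH/3T3 (8 UMIs) and 0.0557 CPM in N2a (1 UMI). For Sox13, mESCs stood 22.9 times above NIH/3T3 (11.4 to 53.8) and 281 times above N2a (49.9 to 11165).

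Low levels in a line are to be read beside the traces of other lines' transcripts. The 5 NIH/3T3 markers together reached 0.183% of their NIH/3T3 level in N2a and 0.373% in mESCs, and the 5 mESC markers 0.248% in N2a and 0.367% in NIH/3T3. Of the N2a markers, Gata3 was left out here after its values were seen, since it was higher in mESCs. The others together were at 1.40% of their N2a level in mESCs and 0.339% in NIH/3T3, and in mESCs the single values were 0.442% for Hand2, 0.903% for Phox2a and 5.82% for Chga. Sox11 in NIH/3T3 was at 0.310% of its N2a level, Sox8 there at 0.583%, Sox9 in mESCs at 0.540% of its NIH/3T3 level and Sox13 in N2a at 0.356% of its mESC level. These 4 lay within the 0.183% to 1.40% spanned by the summed markers, a range that pools all pairs of lines. Beside the summed markers of the same pair of lines, Sox11 lay below, and Sox8, Sox9 and Sox13 lay above. With few UMIs each, these 4 are not told apart from traces. The ratios given above over these 4 levels are ratios of counts, with any traces included. Sox8 in mESCs was at 2.49% of its N2a level, Sox2ot in NIH/3T3 at 3.12% and Sox13 in NIH/3T3 at 4.37% of its mESC level. Sox11 in mESCs was at 5.00% and Sox4 in mESCs at 5.05% of the N2a level, above the summed markers and below Chga. Whether these 5 low levels, or the 4 before them, were expression was not tested.

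The share of cells with at least 1 UMI was compared at equal depth, with each cell thinned to 1000 UMIs, and the intervals are exact binomial. For Sox4 the share was 19.6% in N2a (18.03 to 21.3), 1.26% in mESCs (0.834 to 1.83) and 8.59% in NIH/3T3 (7.41 to 9.89). Without thinning, 65.6% of N2a cells, 5.71% of mESCs and 35.2% of NIH/3T3 cells had a Sox4 UMI. For Sox9 the thinned share was 13.0% in NIH/3T3 (11.5 to 14.5) and 3.66% in N2a (2.93 to 4.50), and 47.6% and 19.5% without thinning. The share in mESCs, where Sox9 was not told apart from traces, was 0.140% thinned and 0.468% unthinned. For Sox2ot the thinned share was 9.94% in N2a, 4.87% in mESCs and 0.393% in NIH/3T3, and 35.0%, 21.5% and 1.77% without thinning. For Sox11 it was 5.55% in N2a, against 0.187% in mESCs and 0 of 2037 cells in NIH/3T3, which allows up to 0.147% when a count of 0 is taken as 3 (exact binomial upper bound 0.181%).

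**Figure D4:**
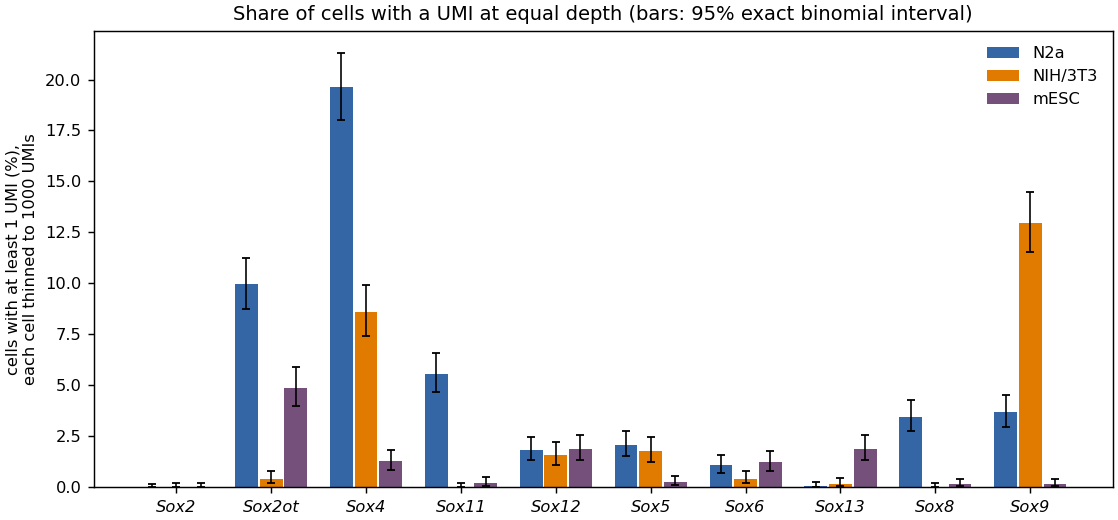
Percent of cells with at least 1 UMI of each gene in N2a, NIH/3T3 and mESCs after each cell was thinned to 1000 UMIs. Error bars are 95% exact binomial intervals, which cover counting error only. The highest shares were those of Sox4 in N2a (19.6%) and Sox9 in NIH/3T3 (13.0%).

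At least 1 of the 10 genes was detected in 84.4% of N2a cells, 67.7% of NIH/3T3 cells and 40.5% of mESCs, or in 39.3%, 23.9% and 11.1% after thinning. Unthinned, 3 or more were found together in 32.6% of N2a cells, 5.94% of NIH/3T3 cells and 2.57% of mESCs. Pairs were counted in thinned cells for genes with a share of at least 2% in the line, which gave 15 pairs in N2a and 1 in NIH/3T3. Sox4 and Sox11 occurred together in 28 N2a cells, where the product of their shares gives 25.3, and Sox4 and Sox9 in 24 NIH/3T3 cells, where the product gives 22.7. For 15 of the 16 pairs the interval of the count included the product. Sox4 and Sox5 in N2a were found together in 2 cells, where the product gives 9.42 (ratio 0.212, 0.0257 to 0.767). With counts this sparse these pairs are a description.

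Within a line, levels were also set beside the cell cycle. The 10% of cells with the most UMIs of 15 G2/M genes after thinning were taken in each line, 232 N2a cells, 204 NIH/3T3 cells and 214 mESCs, with cells of 1 culture that are no replicates. In these N2a cells Sox4 was at 268.7 CPM (245.9 to 293.0), beside 221.6 CPM in the rest (214.4 to 229.0). In NIH/3T3, Sox9 was at 112.1 CPM (94.7 to 131.7) in the G2/M cells and 155.1 CPM (147.6 to 162.9) in the rest. The same genes did not move this way in the other of these lines, with Sox4 in NIH/3T3 at 85.4 CPM (70.3 to 102.7) and 95.3 CPM (89.5 to 101.4), and Sox9 in N2a at 38.4 CPM (30.1 to 48.3) and 34.8 CPM (31.99 to 37.8), both with intervals that overlapped. In mESCs, Sox4 was higher in the G2/M cells as in N2a, at 16.1 CPM (10.2 to 24.2) and 10.8 CPM (8.96 to 13.0), but the intervals overlapped. Sox5 in N2a was at 15.2 CPM (10.2 to 21.9) and 23.1 CPM (20.8 to 25.6), with intervals that overlapped. Sox11 was at 59.4 CPM and 54.7 CPM in N2a, and Sox2ot at 108.3 CPM and 119.0 CPM, again with overlap. Over all members and lines in this split, only Sox4 in N2a and Sox9 in NIH/3T3 had intervals that did not overlap. The share of all genes with such intervals was not counted. These differences are therefore a description, and the intervals do not cover variation between cells.

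Of the 10 other Sox genes, Sox1, Sox3, Sox7, Sox10, Sox14, Sox15, Sox17, Sox18, Sox21 and Sox30, all 10 were at 0 UMIs in NIH/3T3. Sox21, a SoxB2 gene of neural and stem cells, was at 18.6 CPM in mESCs (16.3 to 21.2) and Sox15, a relative of Sox2 in stem cells, at 6.82 CPM (5.44 to 8.44), both with 0 UMIs in N2a and NIH/3T3. Sox3, the X-linked SoxB1 gene, had 16 UMIs in mESCs and 0 elsewhere. Sox21 was the single gene of these 10 that passed the filter of 10 CPM, and it led in mESCs. The primitive endoderm genes Sox17 and Sox7 were at 0.406 and 0.162 CPM in mESCs.

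Of 10 partners and targets of SOX2 in stem cells, 9 passed the filter and 8 led in mESCs, where all 10 were highest. Of all genes that passed the filter, 7.28% led in mESCs. The list was made of genes known from stem cells, and Pou5f1, Nanog and Esrrb are also mESC markers above. The count therefore follows from the choice of list and says nothing of SOX2 itself. Nanog, a core pluripotency factor, was at 571.7 CPM in mESCs (558.5 to 585.2), 1.56 CPM in N2a and 1.20 CPM in NIH/3T3. Sall4, another pluripotency factor, was at 258.7 CPM in mESCs, and Esrrb, a nuclear receptor of the naive state, at 356.6 CPM, both under 2 CPM in the other lines. Pou5f1, the partner of SOX2 on DNA, was at 57.8 CPM in mESCs (53.6 to 62.2), with 4 UMIs in N2a and 1 in NIH/3T3. Klf4 was at 228.9 CPM in mESCs and 127.9 CPM in NIH/3T3. The 4 neighbours of the Sox2 locus (Atp11b, Dnajc19, Fxr1 and Mccc1) were counted in every line, and 0 of them led in a line. Atp11b was at 207.4 CPM in mESCs, 89.8 CPM in NIH/3T3 and 87.9 CPM in N2a, and Dnajc19 was highest in N2a at 192.7 CPM.

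Of 6 neuronal genes linked to SoxC factors, 5 passed the filter and 2 led in N2a. The neuronal tubulin Tubb3 was at 228.7 CPM in N2a, 37.6 CPM in mESCs and 9.15 CPM in NIH/3T3, and the microtubule protein gene Map2 at 118.7 CPM in N2a, 1.87 CPM in mESCs and 0.171 CPM in NIH/3T3. The microtubule regulator Stmn1 was at 337.4 CPM in N2a and 123.9 CPM in NIH/3T3. Dcx, a marker of young neurons, had 1 UMI in all. The other members were not highest in N2a. Tead2, a partner of YAP, was at 74.5 CPM in mESCs, 61.0 CPM in NIH/3T3 and 4.57 CPM in N2a, and Nes, the progenitor filament nestin, at 23.1 CPM in mESCs, 17.0 CPM in N2a and 0.171 CPM in NIH/3T3. Of 10 cartilage and matrix genes linked to SOX9, 1 passed the filter and 0 led in NIH/3T3. Col9a2, a cartilage collagen, led in mESCs at 22.6 CPM, with 0.171 CPM in NIH/3T3. Col11a1 and Acan were highest in mESCs too, at 6.90 and 3.17 CPM. Col11a2 was highest in N2a, at 7.80 CPM, and so was Col2a1, the main cartilage collagen, at 4.34 CPM. Col2a1 had 1 UMI in NIH/3T3, and Col10a1 had 13 there and 0 in the other lines. Of the 10, 5 were highest in mESCs, 3 in N2a and 1 in NIH/3T3.

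For each of the 9 counted genes, the 2 genes nearest in level were taken, by the largest of the 3 differences in log2(CPM + 1) over the lines. Genes with symbols of Gm plus digits or ending in Rik, many of them noncoding, were left out of this search and of the counts within a difference. Nearest to Sox2ot were Fsd1l, at 108.8, 4.53 and 44.6 CPM in N2a, NIH/3T3 and mESCs (largest difference 0.41), and Mapt, which encodes the neuronal microtubule protein tau (0.43). Sox9 was nearest to Antxr2, an anthrax toxin receptor (0.35), and Gsn, the actin-severing protein gelsolin (0.39). Sox4 was nearest to Stk39 (0.43) and Epb41l3 (0.44), Sox11 to Ggt7 (0.13) and Rims4 (0.16), and Sox8 to Gstk1 (0.07) and Ramp2 (0.11). Sox5 was nearest to Cgrrf1 and Adcy6 (0.08 each), Sox6 to Pgbd5 (0.16) and Fhip2b (0.18), Sox12 to Siah2 (0.05) and Leng8 (0.08), and Sox13 to AI467606 (0.12) and Ociad2 (0.14). Within a difference of 0.5 there were 285 genes for Sox12 and 2 each for Sox2ot and Sox9. Over 3 points such likeness is a description of levels.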

How the data were processed

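The UMI counts deposited by the authors are raw counts per gene and barcode, made with bcl2fastq, TSO trimming and STARsolo on GRCm39 with GENCODE M30, reads being split by BC1 into lines, with no cell filter. The feature mode of STARsolo was not given in the sources used here. From these counts, barcodes of 1000 UMIs or more, no more than 20% of them mitochondrial, were kept as cells, doublets were not called, and CPM and shares were computed per line with Python 3.11.15, numpy 2.4.6, scipy 1.17.1 and pandas 2.3.3. Depth in the matrices was 20662884 (N2a), 13505027 (NIH/3T3) and 13875356 (mESC) UMIs. The 95% intervals are exact Poisson for sums and exact Clopper-Pearson for shares, and cover counting error only. Positions and promoter starts came from GENCODE M39, which held 32953 of the 33565 gene identifiers. By rule, the text names all 10 members, other Sox genes of at least 5 CPM in a line, up to 3 genes per list by the ratio of CPM + 1, and the 2 nearest genes per member. Further genes of the lists, and the cells with at least 5 Sox2ot UMIs, were chosen after their values were seen. The members and lists were chosen with earlier results of these data known. The 4-fold rule and the Poisson intervals were tested on simulated Poisson counts, and the other steps were not. Alternatives changed the cells, the thinning, the total, the matrix, the fold and the filter. For 1 of the N2a markers no value is reported here.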

Additional observations from a re-analysis of the deposited data

How the results depend on the processing

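Leading genes were Sox8 and Sox11 (N2a), Sox9 (NIH/3T3) and Sox13 (mESC) under 9 of the 11 alternatives. With each cell thinned to 1000 UMIs, the number leading in NIH/3T3 was 0, since Sox9 fell below 4-fold, and at 2-fold Sox4 was added in N2a. The highest line was kept for 9 of 9 members under 7 of the 8 alternatives for levels, and for 8 of 9 under thinning, where Sox6 was higher in mESCs. The 17 levels of at least 5 CPM stayed between 0.826 and 1.23 times their value under thinning, rose by 1.10 to 1.14 times when mitochondrial and ribosomal protein genes were left out of the total, and stayed between 0.932 and 1.07 times under the others. Shares rise with depth by construction, and levels from under 10 UMIs are limited by counting. No paired analysis was possible because each line was 1 sample of the shared library, without replicates.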

Other observations

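Among mESCs, 89 cells held at least 3 UMIs of the 2-cell-like list (7 genes in the matrix, among them Zscan4c and Zscan4d), a state that resembles the cells of the early embryo. Sox2ot was at 62.4 CPM in these cells (40.8 to 91.4) and 59.6 CPM in the other 2048 (55.2 to 64.1). Sox12 was at 9.60 CPM (2.62 to 24.6) and 19.4 CPM (17.0 to 22.1), Sox13 at 4.80 CPM (0.581 to 17.3) and 16.04 CPM (13.8 to 18.5), and Sox11 at 9.60 CPM (2.62 to 24.6) and 2.52 CPM (1.70 to 3.60), each from at most 4 UMIs in the smaller group and with intervals that overlapped.

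Among mESCs of at least 3000 UMIs, 14 cells had 0 UMIs of Zfp42, a marker of the naive state. Sox6 was at 91.5 CPM in them (33.6 to 199.2), from 6 UMIs in 3 cells, and at 13.5 CPM (11.4 to 15.8) in the other 1560. With 14 cells and 3 carrying the UMIs, this value rests on few cells. In the G2/M cells of NIH/3T3, Sox6 was at 9.91 CPM (5.28 to 16.9) and in the rest at 4.33 CPM (3.16 to 5.80), with 13 and 45 UMIs, and in those of mESCs Sox11 was at 6.31 CPM (2.89 to 12.0) and 2.29 CPM (1.48 to 3.39), with 9 and 25 UMIs. Without a cell filter, Sox1ot had 2 UMIs in NIH/3T3, 5 in mESCs and 0 in N2a, and Sox5it, which lies within Sox5, had 0 in all matrices.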
